A study of Mus musculus with 20 samples.

Results

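Transcripts were compared between Akr1a1 KO and wildtype RAW264.7 cells, a mouse macrophage-like line, by bulk sequencing of poly(A) RNA. The 8 libraries of this comparison, of 20 in the series, were chosen by the cell line and genotype named in their labels, and fall into 4 groups of 2: wildtype unstimulated, wildtype stimulated, Akr1a1 KO unstimulated and Akr1a1 KO stimulated. Stimulated cells received LPS at 50 ng/mL and IFNγ at 10 ng/mL for 48 h, and unstimulated cells received neither. The comparison asks which transcripts differ with the loss of AKR1A1, in either state, and 19569 of the 56748 genes listed were tested in it. The knockout was made with Cas9 protein and a single guide RNA, followed by sorting of single cells and screening of the clones by immunoblot, and the libraries come from clonal replicates lettered A and B. The effect of the genotype and differences between clones therefore cannot be told apart, and the p-values measure only the spread among these clones and libraries.

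AKR1A1 is an aldo-keto reductase that uses NADPH to reduce aldehydes, and it also reduces S-nitroso-coenzyme A and S-nitrosoglutathione, carriers of nitric oxide. LPS is sensed by TLR4 and IFNγ by its own receptor, and together they switch macrophages to the classically activated state, in which Nos2 (inducible nitric oxide synthase) and Acod1 (the enzyme that makes itaconate) are strongly induced. Nitric oxide made in this state modifies thiols, among them the lipoyl arm of the pyruvate dehydrogenase complex.

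Total counts per library ranged from 11876719 to 44583327. The titles of the unstimulated B libraries of either genotype say stimulated, but their treatment field and library name say unstimulated, and they were used as unstimulated. On the first principal component, with 68.6% of the variance, all 4 unstimulated libraries lay between -116 and -103 and all 4 stimulated libraries between 87.4 and 118. The second component (10.6%) separated the genotypes, with wildtype libraries between 33.2 and 53.1 and Akr1a1 KO libraries between -46.7 and -38.2. Within a genotype the letters carried over between the states: over 10124 genes with a mean log2 CPM over 2, the difference between A and B in unstimulated libraries correlated with that in stimulated libraries at r = 0.433 in wildtype and r = 0.207 in Akr1a1 KO cells (across genes, as a description). Between genotypes the same correlations within a state were -0.128 and -0.114. Both wildtype letters also differed from each other over much of chromosome 3, as described with the chromosomes at the end.

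The libraries had the transcripts of macrophages. The summed level of the macrophage markers (11 genes, among them Adgre1, Cd68, Spi1 and Lyz2), in counts scaled to library size (CPM), was 4636 to 12620.0 CPM in wildtype and 3550.0 to 9348 CPM in Akr1a1 KO libraries, with 10 or 11 of the 11 detected in each library. T and NK lymphocyte markers summed to 0 to 0.45 CPM in wildtype and 0.0696 to 1.27 CPM in Akr1a1 KO libraries, and Cd3e, Cd3g and Trac had 0 counts in all libraries, which allows up to 3 counts per library (0.0645 to 0.236 CPM). Epithelial markers reached at most 0.0563 CPM in sum, and 7 of 8 had 0 counts, among them Epcam. Of the B lymphocyte markers, which summed to 45.8 to 175 CPM in wildtype and 18.9 to 227 CPM in Akr1a1 KO libraries, Ms4a1 had 0 counts, and of the neutrophil markers (6.38 to 145 CPM in wildtype and 9.78 to 429 CPM in Akr1a1 KO libraries) Ngp and Retnlg had 0 counts. Dendritic cell markers summed to 64.6 to 279.7 CPM in wildtype and 83.3 to 306 CPM in Akr1a1 KO libraries, mast cell and basophil markers to 0.338 to 5.72 CPM in wildtype and 1.07 to 2.14 CPM in Akr1a1 KO libraries and fibroblast markers to 0.624 to 5.28 CPM in wildtype and 0.348 to 5.09 CPM in Akr1a1 KO libraries. In bulk RNA, fewer cells of a type and less RNA per cell cannot be told apart.

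The Akr1a1 transcript (ENSMUSG00000028692, chromosome 4, 116493707 to 116508877 as the table lists it, which names no genome build) was lower in every Akr1a1 KO library than in wildtype but still present. It was at 427 and 488 CPM in unstimulated wildtype, 206 and 21.8 CPM in unstimulated Akr1a1 KO, 576 and 675 CPM in stimulated wildtype and 370.4 and 212 CPM in stimulated Akr1a1 KO libraries. Each KO library lay below both wildtype libraries of its state, and replicate B of the KO was lower than replicate A in each state. The difference did not pass the test across all genes (log2 fold change -1.56 with a standard error of 0.544, adjusted p = 0.265, from the quasi-likelihood test of edgeR with state as a covariate, adjusted over all genes by Benjamini-Hochberg). In an exact permutation test of log2 CPM with the genotypes exchanged within each state (2-sided, 36 arrangements), p was 0.0556, the smallest that these arrangements allow. The arrangements treat the libraries of both states as independent, although the letters carried over between states. If a letter is the same clone in both states, this p is too small. Counts summed over the whole transcript say little about an edited coding sequence, and the loss of the protein was not checked by these data.

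**Figure D1:**
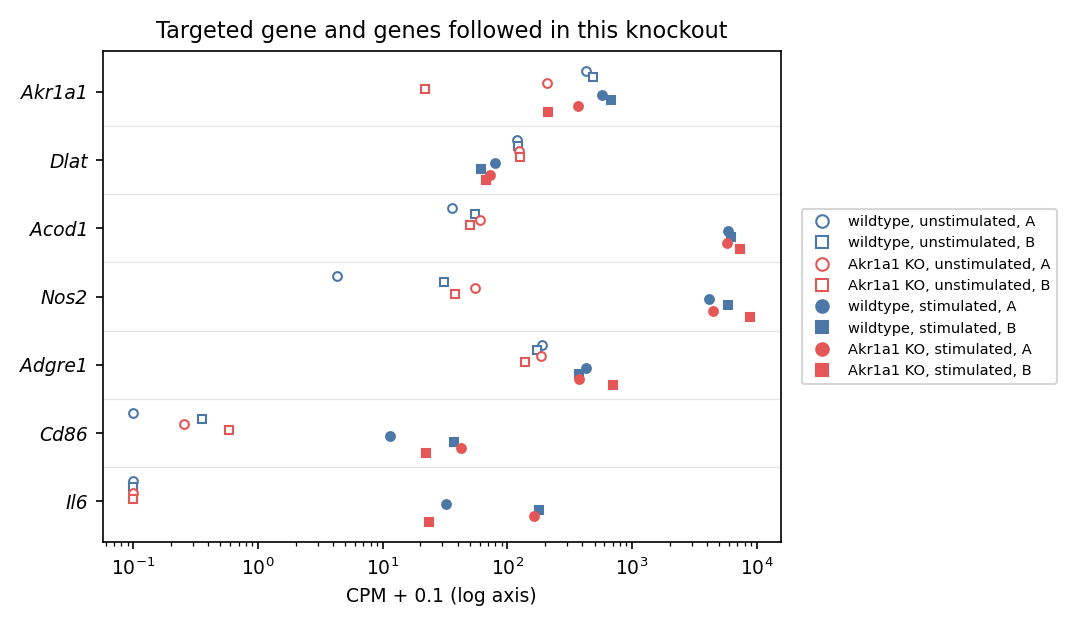
CPM + 0.1 (log axis) in each of the 8 libraries for Akr1a1 and for genes that the study followed in Akr1a1 KO cells, most of them as protein. Open symbols are unstimulated and filled symbols stimulated libraries, circles are replicate A and squares replicate B. Akr1a1 lies lower in each KO library than in both wildtype libraries of the same state, and the genotypes overlap in at least 1 state for Dlat, Acod1, Nos2, Adgre1, Cd86 and Il6.

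None of the other genes that the study followed in Akr1a1 KO cells passed the test, and the values here are RNA. The study followed F4/80, CD86, MHC class II, CD206 (Mrc1) and IRG1 (Acod1) as protein, and IL-6 as RNA and as protein. It followed iNOS (Nos2) and DLAT as protein in immortalized bone marrow-derived macrophages, not in RAW264.7 cells. Il6, the inflammatory cytokine interleukin 6, had 0 counts in the 4 unstimulated libraries, 31.9 and 179.6 CPM in stimulated wildtype and 163 and 23.6 CPM in stimulated Akr1a1 KO libraries. The letters of both genotypes lay far apart and the genotypes overlapped (adjusted p = 0.968). Acod1 was at 5844 and 6217 CPM in stimulated wildtype and 5729 and 7297 CPM in stimulated Akr1a1 KO libraries (log2 fold change over both states 0.19, adjusted p = 0.71). Nos2 was at 4155 and 5899 CPM in stimulated wildtype and 4445 and 8806 CPM in stimulated Akr1a1 KO libraries (0.87, adjusted p = 0.53). Dlat, the subunit of pyruvate dehydrogenase that carries the lipoyl arm, differed little in any library (119 and 122 CPM in unstimulated wildtype and 123 and 127 CPM in unstimulated Akr1a1 KO, log2 fold change 0.02, standard error 0.0981). The macrophage marker Adgre1, which encodes F4/80, was at 172 to 423 CPM in wildtype and 139 to 700.4 CPM in Akr1a1 KO libraries, and the co-stimulatory ligand Cd86 was at 11.4 and 36.9 CPM in stimulated wildtype and 42.3 and 22 CPM in stimulated Akr1a1 KO libraries. Of the MHC class II genes, H2-Eb1 had 0 and 0 counts in unstimulated wildtype, 1 and 2 in unstimulated Akr1a1 KO, 1 and 2 in stimulated wildtype and 5 and 17 in stimulated Akr1a1 KO libraries. It was higher in the KO libraries of each state without overlap, with 25 counts against 3 in all, and did not pass the test (unadjusted p = 0.00503, adjusted p = 0.148, edgeR). H2-Aa and H2-Ab1 had 1 count each and were not tested. Mrc1, the mannose receptor, had 17 counts in wildtype and 26 in KO libraries, and a difference was not detectable at this depth (adjusted p = 0.739).

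Over both states, 235 genes passed the test (1.2% of the genes tested), 89 higher (0.455%) and 146 lower (0.746%) in Akr1a1 KO libraries. Of these, 216 were protein-coding and 16 were long noncoding RNAs. In 228 of the 235, every KO library lay on the same side of every wildtype library within each state, against 12.3% of all genes tested (5.09% with the KO above and 7.16% with the KO below). Among the called genes, 173 had an absolute log2 fold change over 1 and 57 over 5. When the counts of both states were summed for each genotype and letter, for a comparison of 2 against 2 that takes a letter to be the same clone in both states, which the labels do not state, 43 genes passed (10 higher and 33 lower), of which 40 were among the 235. DESeq2 with the same terms called 780 genes, 232 of the 235 among them. The count also depended on which letters entered: it was 85 without both libraries of KO replicate A, 108 without KO replicate B, 381 without wildtype replicate A and 532 without wildtype replicate B.

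**Figure D2:**
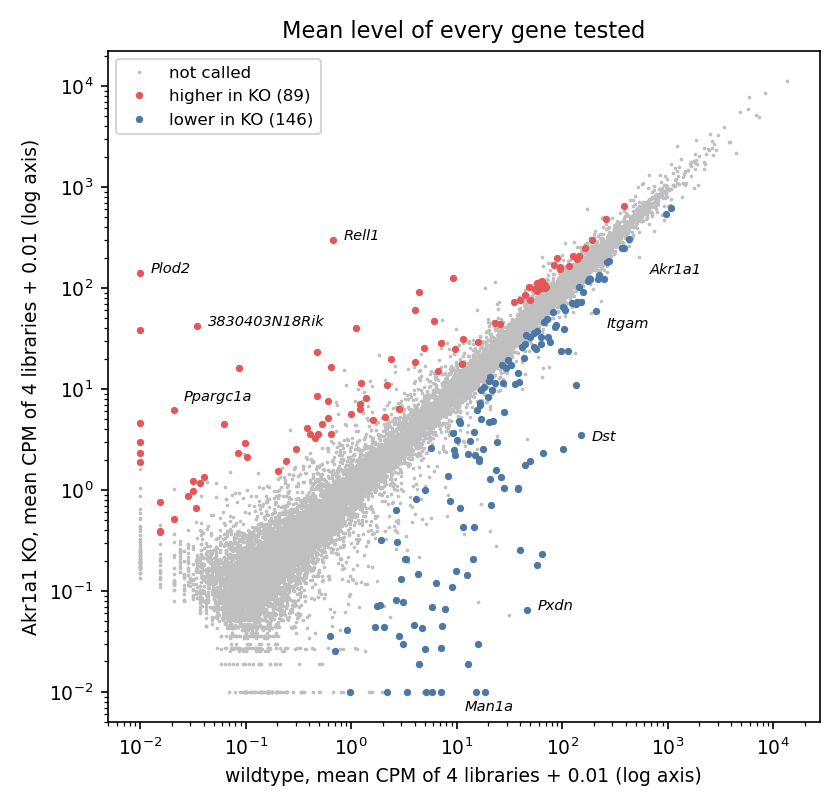
Mean CPM + 0.01 of the 4 wildtype (x axis) and the 4 Akr1a1 KO libraries (y axis), both log axes, for each of the 19569 genes tested; red points are the 89 genes higher and blue points the 146 genes lower at an adjusted p under 0.05. Of the called genes, 173 differ by more than 1 on the log2 scale, and genes at the left edge and the bottom edge had 0 counts in 1 genotype.

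A share of the called genes was read in 1 genotype and nearly absent from the other. Of the 146 genes that were lower, 28 (19.2%) had 3 counts or fewer in each of the 4 KO libraries, and of the 89 that were higher, 15 (16.9%) had 3 counts or fewer in each of the 4 wildtype libraries. Over all 19569 genes tested, called or not, 1081 were at this level in the KO libraries alone and 749 in the wildtype libraries alone. The genes named in the next sentences were chosen after their values were seen. Plod2 (chromosome 9, 92424276 to 92490481), a lysyl hydroxylase of collagen, had 0 counts in all 4 wildtype libraries and 126 and 132 CPM in unstimulated and 157 and 147 CPM in stimulated Akr1a1 KO libraries. It was at least 834-fold higher in KO cells, with wildtype set to 3 counts per library (adjusted p = 4.68e-06), and its KO libraries lay close together in both states. The uncharacterized X-linked gene 3830403N18Rik had 3 counts over the 4 wildtype and 3109 over the 4 KO libraries, a ratio of 1311 after scaling (95% exact interval 448 to 6360, counting error only). Ppargc1a, a co-activator of mitochondrial biogenesis, had 2 counts in wildtype and 409 in KO libraries (ratio 259, 71.2 to 2143), where it was at 2.64 to 12.4 CPM.

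In the other direction, Pxdn, a peroxidase of the extracellular matrix, was at 22.4 to 72.8 CPM in wildtype libraries, and the KO libraries held 3 counts in all against 5090 (ratio 1341, interval 459 to 6507). Maoa (monoamine oxidase A, chromosome X) had 1514 counts in wildtype and 1 in KO libraries (ratio 1197, 214.5 to 47308). Man1a, a mannosidase of the Golgi, had 0 counts in all KO libraries and was at least 102-fold lower (adjusted p = 0.034). The Man1a level varied between the wildtype letters (4.87 and 20.9 CPM unstimulated, 4.76 and 44.1 CPM stimulated), B above A in each state. Psd4, an exchange factor for ARF6 (32.8 to 131 CPM in wildtype and 0.0348 to 0.565 CPM in KO libraries), had 14 counts over the 4 KO libraries. In each of these genes the pattern was the same in unstimulated and stimulated libraries.

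Among protein-coding genes with a mean log2 CPM over 2, the largest increase was that of Rell1 (chromosome 5, 64066240 to 64126240), a member of the RELT family of TNF receptor-like proteins. It was at 1.6 and 0.989 CPM in unstimulated wildtype, 328 and 366 CPM in unstimulated Akr1a1 KO, 0.0744 and 0 CPM in stimulated wildtype and 299 and 212 CPM in stimulated Akr1a1 KO libraries. The fitted log2 difference was 8.89 with a standard error of 0.481 (adjusted p = 3.02e-05). Its neighbours Gm15819 and 5830416I19Rik were called higher with it, the longest run of adjacent called genes among the genes tested. Signalling genes followed. Plcb2, a phospholipase C driven by G proteins, was at 6.75 and 3.2 CPM in unstimulated wildtype, 107 and 91.6 CPM in unstimulated Akr1a1 KO, 7.44 and 0.225 CPM in stimulated wildtype and 90.3 and 72.8 CPM in stimulated Akr1a1 KO libraries. The fitted log2 difference was 4.44 with a standard error of 0.59 (adjusted p = 0.00693). Pde8a, a cyclic AMP phosphodiesterase, was at 1.38 and 0.989 CPM in unstimulated wildtype, 36.8 and 26.6 CPM in unstimulated Akr1a1 KO, 6.47 and 7.32 CPM in stimulated wildtype and 97.9 and 78.2 CPM in stimulated Akr1a1 KO libraries (log2 fold change 4.15 with a standard error of 0.255, adjusted p = 8.34e-05). In both genes the KO libraries lay several-fold above every wildtype library. The tetraspanin Tspan7 rose and was at 3.1 to 16.9 CPM in wildtype and 81.7 to 156 CPM in KO libraries (log2 fold change 3.77).

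A cytokine and an Fc receptor were also among the 12 largest increases. Il1a, which encodes interleukin 1α, was at 0.0726 and 0.193 CPM in unstimulated wildtype, 3.53 and 1.04 CPM in unstimulated Akr1a1 KO, 8.26 and 16 CPM in stimulated wildtype and 134 and 50.5 CPM in stimulated Akr1a1 KO libraries (log2 fold change 3.07 with a standard error of 0.48, adjusted p = 0.0164), so that the stimulated libraries lay above the unstimulated ones in both genotypes and the KO libraries above wildtype in each state. Fcgr3, an activating low-affinity IgG receptor, was at 1.23 and 2.39 CPM in unstimulated wildtype, 6.99 and 6.23 CPM in unstimulated Akr1a1 KO, 7.96 and 4.67 CPM in stimulated wildtype and 27.4 and 32.6 CPM in stimulated Akr1a1 KO libraries (log2 fold change 2.04 with a standard error of 0.248, adjusted p = 0.00423). The zinc finger gene Zfp618 was at 2.77 to 6.47 CPM in wildtype and 19.9 to 30.5 CPM in KO libraries (2.45), and Xylt1, which starts glycosaminoglycan chains, was at 189.6 and 129 CPM in stimulated wildtype and 306 and 375 CPM in stimulated KO libraries (1.34). The other genes of the 12 were Prss50 (3.13), Nxf7 (1.67), Epb41l1 (1.36) and Gkap1 (1.27), with adjusted p between 0.015 and 0.034. Of these 4, Epb41l1 and Nxf7 were the least stable to the processing. Over the alternatives, Epb41l1 lost significance in 12, Nxf7 in 10, Prss50 in 8 and Gkap1 in 7, as did Il1a in 7.

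Among the decreases, the largest by the same rule was that of Dst (dystonin, chromosome 1, 33947306 to 34347742), a cytoskeletal linker. It was at 70.8 and 141 CPM in unstimulated wildtype, 0.785 and 0.313 CPM in unstimulated Akr1a1 KO, 199 and 199 CPM in stimulated wildtype and 3.75 and 9.23 CPM in stimulated Akr1a1 KO libraries. The fitted log2 difference was -5.87 with a standard error of 0.565 (adjusted p = 0.00108). Dst lies within the stretch of chromosome 1 from 30 to 80 Mb described with the chromosomes, and the part of that position in its difference was not tested. Cx3cr1, the fractalkine receptor of monocytes and macrophages, was at 262 and 193 CPM in unstimulated wildtype, 19.2 and 19.8 CPM in unstimulated Akr1a1 KO, 64.7 and 23.2 CPM in stimulated wildtype and 1.14 and 3.14 CPM in stimulated Akr1a1 KO libraries (log2 fold change -3.86 with a standard error of 0.373, adjusted p = 0.00109), and the stimulated libraries lay below the unstimulated ones of the same genotype. Csf2ra, the α chain of the GM-CSF receptor, was at 28.5 and 33.8 CPM in unstimulated wildtype, 3.61 and 0.104 CPM in unstimulated Akr1a1 KO, 96.5 and 41.7 CPM in stimulated wildtype and 3.95 and 0 CPM in stimulated Akr1a1 KO libraries (log2 fold change -4.77 with a standard error of 0.879, adjusted p = 0.0353). The call of Csf2ra was unstable to the processing and lost significance in 11 of the alternatives. Replicate B of the KO had 0 to 0.104 CPM of Csf2ra and replicate A 3.61 and 3.95 CPM, and the same letters differed in the same direction for Ly9, a SLAM family receptor (3.22 and 0 CPM unstimulated and 5.23 and 0.691 CPM stimulated in the KO, 30.1 to 115 CPM in wildtype).

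Flt1, a receptor for VEGF, was at 12.7 to 67.4 CPM in wildtype and 0.134 to 2.92 CPM in KO libraries (log2 fold change -5.10 with a standard error of 0.422, adjusted p = 0.000376). Antxr1, an anthrax toxin receptor that binds collagen, was at 7.65 to 62.5 CPM in wildtype and 0.626 to 1.34 CPM in KO libraries (-5.21), and the semaphorin Sema5a at 15.5 to 82.6 and 1.34 to 2.14 CPM (-4.39). Zcwpw1, a reader of histone methylation, was at 155 and 212 CPM in unstimulated wildtype, 5.58 and 2.4 CPM in unstimulated Akr1a1 KO, 17.3 and 22.9 CPM in stimulated wildtype and 0.938 and 1.26 CPM in stimulated Akr1a1 KO libraries (-5.10, adjusted p = 0.000153). Lacc1, a metabolic enzyme of macrophages, was at 9.81 to 25.9 CPM in wildtype and 0.383 to 6.9 CPM in KO libraries (-3.22), and its neighbour Ccdc122 was lower too (-3.27). The phospholipase Liph (-3.32), the calcium channel Cacna1d (-3.03) and Asb11 (-3.01) complete the 12. No KO library reached the level of a wildtype library of its state in any of them, which the rule for naming them required.

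**Figure D3:**
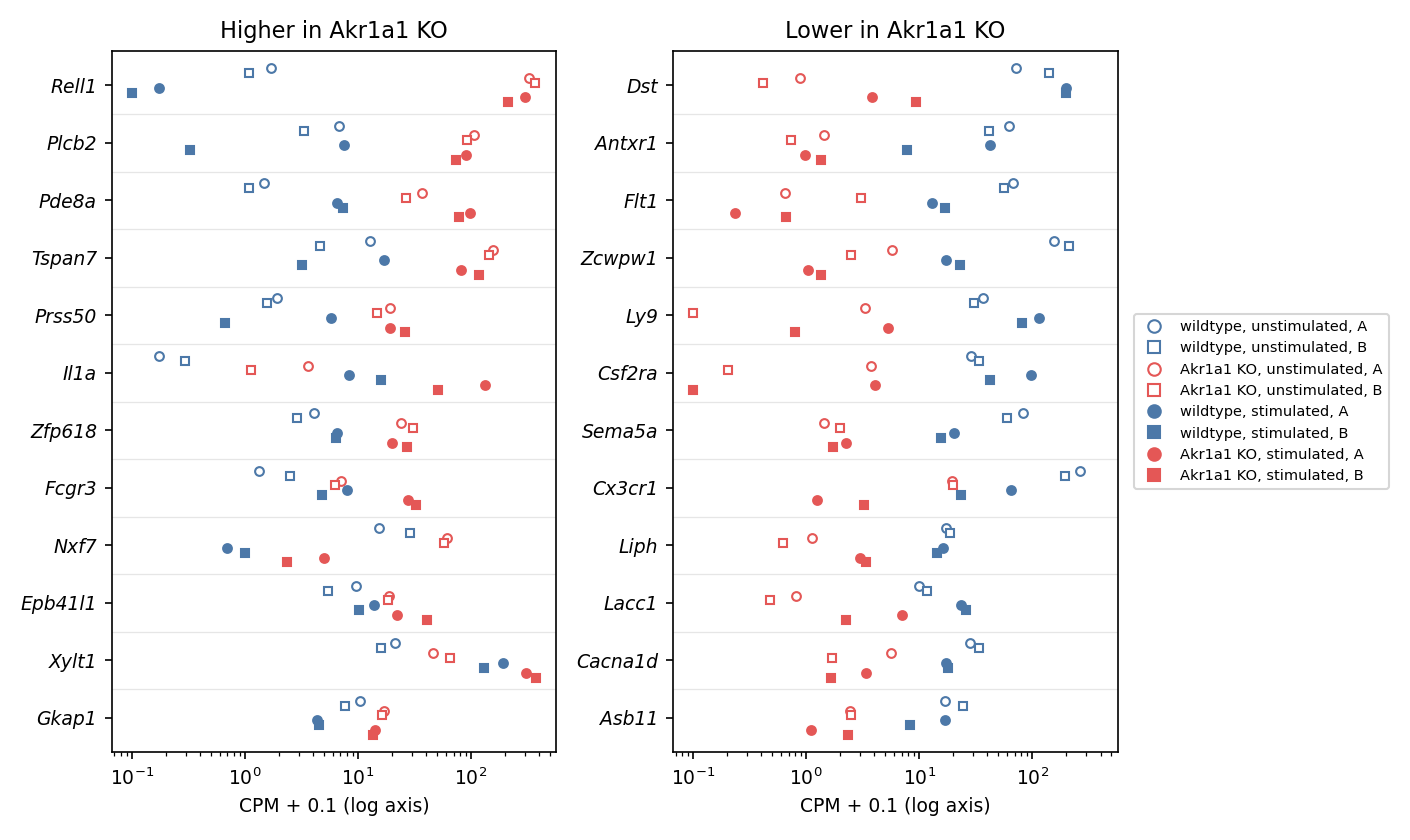
CPM + 0.1 (log axis) in each of the 8 libraries for the 12 most increased and the 12 most decreased of the called protein-coding genes that exceeded a mean log2 CPM of 2 and did not overlap within a state; symbols are as in the plot of Akr1a1. The genotypes are further apart than the states for Rell1, Plcb2, Pde8a and Dst, and the states also differ for Il1a, Nxf7, Xylt1 and Cx3cr1.

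Genes of macrophage identity and of the inflammatory response were read next, from 54 lists of genes in all, whose 1018 tested members had 4 genes higher and 14 lower (1.77% called, against 1.2% over all genes). Of the macrophage markers, 2 of 10 fell and 0 rose (median log2 fold change -0.24, -0.01 over all genes). Itgam, which encodes CD11b, was at 11.3 and 18.2 CPM in unstimulated wildtype, 1.81 and 4.1 CPM in unstimulated Akr1a1 KO, 404 and 413 CPM in stimulated wildtype and 95.4 and 134 CPM in stimulated Akr1a1 KO libraries. The fitted log2 difference was -2.01 with a standard error of 0.232 (adjusted p = 0.00301). Csf1r, the receptor for the macrophage growth factor CSF1, was at 1221 and 1286 CPM in unstimulated wildtype, 769 and 812 CPM in unstimulated Akr1a1 KO, 682 and 659 CPM in stimulated wildtype and 303 and 291 CPM in stimulated Akr1a1 KO libraries. The fitted log2 difference was -0.92 with a standard error of 0.124 (adjusted p = 0.00746). In both receptors each KO library lay below the wildtype libraries of its state, and in both genotypes the stimulated libraries were higher for Itgam and lower for Csf1r. The summed macrophage marker level was also lower in the KO than in wildtype libraries of each state. That sum includes Itgam, Csf1r and Lyz2, so it is not separate from their values. Whether a lower level shared by the markers had a part in these differences was not tested. Cd68 (-0.07), Spi1 (-0.18) and Tyrobp (-0.19) did not pass, nor did Lyz2, which was at 7101 and 6651 CPM in stimulated wildtype and 1611 and 4682 CPM in stimulated KO libraries (adjusted p = 0.197). Adgre1 lay slightly the other way (0.13) and did not pass, and the log2 fold changes of the 10 ran from -2.01 to 0.36.

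Of 32 cytokines, Il1a rose and Tnf fell. Tnf, which encodes TNFα, was at 48.3 and 61.4 CPM in unstimulated wildtype, 32 and 30.3 CPM in unstimulated Akr1a1 KO, 1855 and 2363 CPM in stimulated wildtype and 1009 and 1411 CPM in stimulated Akr1a1 KO libraries (log2 fold change -0.81 with a standard error of 0.146, adjusted p = 0.0318), lower in each KO library than in the wildtype libraries of its state. None of 18 chemokines passed, and of 13 chemokine receptors Cx3cr1 alone did. Of 20 pattern recognition receptors, Tlr13, a sensor of bacterial ribosomal RNA, was lower (-0.58, adjusted p = 0.0246, 165 to 219 CPM in wildtype and 100.4 to 147 CPM in KO libraries). Among 25 scavenger and clearance genes, Pros1 (protein S, a bridge to dying cells, -4.17) and Scarb1 (the HDL receptor, -0.87) fell and Mfge8 (another bridging protein, 0.92) rose. Of 13 Fc and complement receptors, Fcgr3 rose and Itgam fell.

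Interferon-driven genes were not called in either direction. For 43 interferon-stimulated genes the median log2 fold change was 0.25 with 0 called, and the 19 guanylate-binding proteins and IRGs, GTPases that act on vacuoles of pathogens, a median of 0.59 with 0 called (0.00 in unstimulated and 0.68 in stimulated libraries). Likewise 0 were called among 17 NF-kB subunits and feedback genes, 15 inflammasome and cell death genes, 20 MHC class I genes, 11 MHC class II genes and 18 co-stimulation and checkpoint ligands. Of 28 phagocytosis genes 0 were called (median -0.11, with 9 lower and 1 higher without overlap in either state, against 7.16% and 5.09% of all genes tested), and of 26 endocytosis genes Ehd4, a membrane-shaping ATPase, was lower (-0.54, adjusted p = 0.0442).

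In unstimulated cells, 10 genes of the unfolded protein response and the integrated stress response were higher in the KO. These pathways act when proteins fold poorly in the endoplasmic reticulum or amino acids run short: IRE1, ATF6 and PERK sense the load, XBP1, ATF6 and ATF4 carry the signal to the nucleus, and chaperones and disulfide isomerases are made. With 1 mean per group, 10 of the 30 genes of this list rose in unstimulated Akr1a1 KO cells and 0 fell, against 0.583% of all genes called in unstimulated libraries (0.23% higher). The list is 1 of 54, chosen with earlier results of these data known, so its contrast with all genes is a description. In stimulated libraries 0 of the 30 passed, against 0.286% of all genes. The median log2 fold change of the list was 1.01 without stimulation and -0.22 with it, against -0.02 and 0.01 over all genes. Of the 30 genes, 29 had a positive log2 fold change in unstimulated libraries (44.9% of all genes tested) and 11 in stimulated ones. In the fit over both states none of the 30 was called. The number called in unstimulated cells depended on the libraries: without any 1 of the 4 unstimulated libraries 2 genes were called, with list medians of 0.91 to 1.20, and without both B libraries, whose titles conflict, 0 were called, with a median of 1.25. Without both unstimulated A libraries 0 were called as well, with a median of 0.86. Of the stimulated libraries, leaving out wildtype replicate A or B gave 17 and 16 genes, and leaving out KO replicate A or B gave 6 each.

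Pdia4, a disulfide isomerase of the endoplasmic reticulum, was at 118 and 126 CPM in unstimulated wildtype, 376 and 349 CPM in unstimulated Akr1a1 KO, 68.7 and 87.7 CPM in stimulated wildtype and 56.7 and 60 CPM in stimulated Akr1a1 KO libraries. In unstimulated cells its difference passed the test (log2 fold change 1.57 with a standard error of 0.143, adjusted p = 0.0035, edgeR). Sdf2l1, a partner of the chaperone BiP, was at 101 and 99.4 CPM in unstimulated wildtype, 336 and 277 CPM in unstimulated Akr1a1 KO, 51.7 and 59.9 CPM in stimulated wildtype and 45.8 and 42.6 CPM in stimulated Akr1a1 KO libraries (log2 fold change 1.61 with a standard error of 0.139, adjusted p = 0.00278 in unstimulated cells). In both genes the KO libraries stood well above wildtype without stimulation and slightly below it with stimulation. That difference between the states passed the test of the interaction between genotype and state (adjusted p = 0.0362 for both). In all, 4 genes (0.0204% of those tested) passed the interaction test, and 1079 had an unadjusted p under 0.05. None of the 4 passed when KO unstimulated replicate A or B, KO stimulated replicate A or B or wildtype unstimulated replicate A was left out. Serinc3 alone passed without wildtype unstimulated replicate B, and 14 genes passed without wildtype stimulated replicate A.

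The other 8 genes of the list that rose in unstimulated cells had log2 fold changes from 0.78 to 1.49. Pdia6 (1.39) and Pdia3 (1.05) are disulfide isomerases, Creld2 (1.49) and Manf (1.37) are secreted or resident proteins made under this stress, and Hyou1 (1.23) and Dnajc3 (1.14) are chaperone and co-chaperone. Ddit3, the transcription factor CHOP, was at 7.41 and 9.24 CPM in unstimulated wildtype and 23.8 and 19.8 CPM in unstimulated KO libraries (1.37), and at 82.8 and 92.1 CPM in stimulated wildtype and 92.7 and 113 CPM in stimulated KO libraries. Asns, asparagine synthetase and a target of ATF4, was at 89.6 and 83 CPM in wildtype and 148 and 147 CPM in KO libraries (0.78).

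Hspa5, which encodes the chaperone BiP, was at 815 and 1064 CPM in unstimulated wildtype, 2519.8 and 2439 CPM in unstimulated Akr1a1 KO, 852 and 1554 CPM in stimulated wildtype and 948 and 861 CPM in stimulated Akr1a1 KO libraries. Both unstimulated KO libraries lay above both wildtype libraries, yet the difference did not pass (log2 fold change 1.40 with a standard error of 0.273, adjusted p = 0.0966). The sensors and factors themselves had smaller values: Ern1 (IRE1) had a log2 fold change of 0.44, Atf6 0.40, Xbp1 0.54 and Atf4 0.25 in unstimulated cells, none of them called, and Ppp1r15a (GADD34) was at -0.32. When the unstimulated libraries were fitted alone, 16 of the 30 were higher and 0 lower. Heat shock genes of the cytosol were not called (0 of 13 in either state, median -0.04 in unstimulated libraries).

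**Figure D4:**
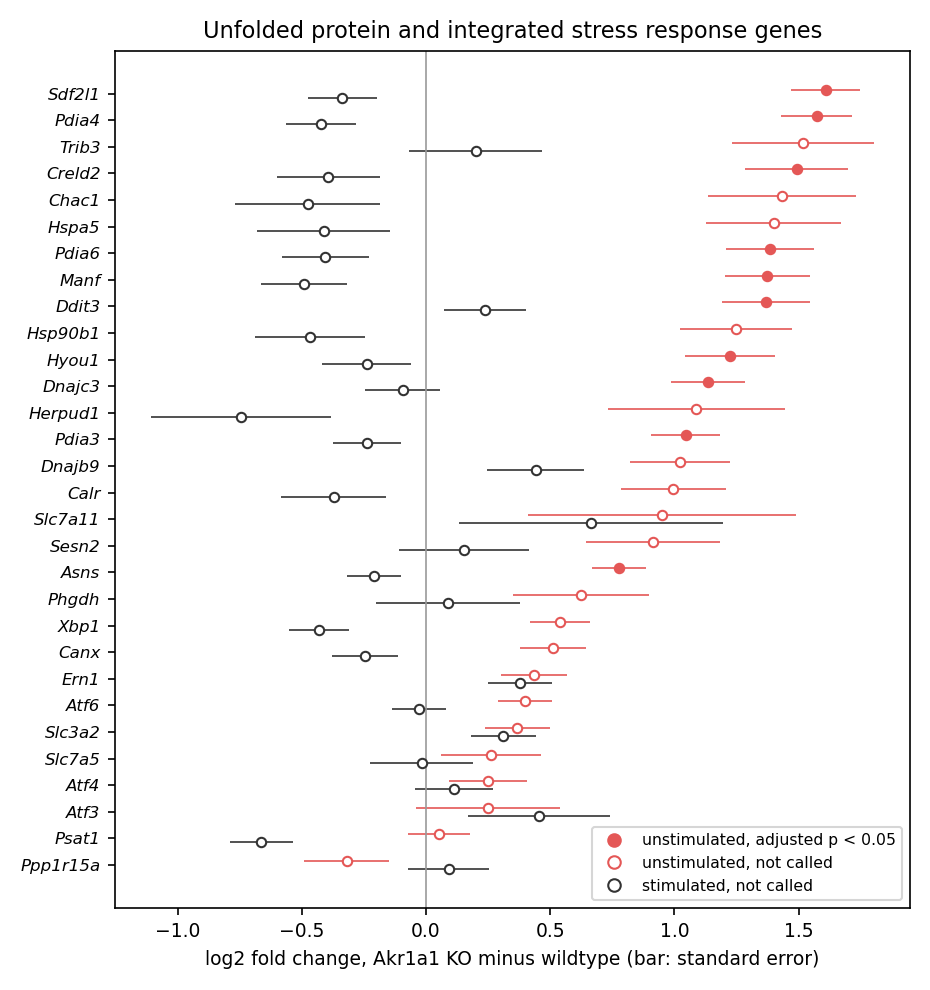
log2 fold change of Akr1a1 KO minus wildtype (x axis, bars are standard errors) for each of the 30 unfolded protein and integrated stress response genes, in unstimulated (red) and stimulated (black) libraries; filled symbols have an adjusted p under 0.05. In unstimulated cells 29 of 30 points lie above 0 and 10 are called, and in stimulated cells 11 of 30 lie above 0 and 0 are called.

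Because these genes were higher together, their promoters were read for the ER stress response element (CCAAT and CCACG with 9 bases of any kind between them), searched on both strands in the 250 bases before each start site in a RefSeq table of build GRCm38.p6. Of the 10 genes called in unstimulated cells, 8 were in that table and 3 held the element (Creld2, Dnajc3 and Pdia6). Of the 18 genes of the list that were not called there, 4 held it. Over the whole list 7 of 26 genes held it, among them Hspa5, against 0.13% of all 27025 genes in the table and 0.172% of the genes tested. The list was chosen as genes of this stress response, so its share against all genes says nothing about the knockout. The 3 promoters and that of Hspa5 follow, 5′ to 3′ along the gene's strand, with the element in capitals (on the reverse strand in Creld2).
Creld2 (chr15:88819396-88819645, plus strand): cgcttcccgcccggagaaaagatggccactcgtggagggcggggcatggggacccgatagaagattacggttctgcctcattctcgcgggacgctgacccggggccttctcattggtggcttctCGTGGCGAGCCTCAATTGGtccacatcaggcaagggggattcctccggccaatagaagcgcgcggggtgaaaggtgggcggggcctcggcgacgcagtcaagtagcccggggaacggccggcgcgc
Dnajc3 (chr14:118937682-118937931, plus strand): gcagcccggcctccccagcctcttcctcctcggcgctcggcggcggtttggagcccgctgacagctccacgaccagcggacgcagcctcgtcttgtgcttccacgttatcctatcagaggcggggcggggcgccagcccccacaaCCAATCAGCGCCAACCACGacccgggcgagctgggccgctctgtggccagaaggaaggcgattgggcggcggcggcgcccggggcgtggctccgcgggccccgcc
Pdia6 (chr12:17266339-17266588, plus strand): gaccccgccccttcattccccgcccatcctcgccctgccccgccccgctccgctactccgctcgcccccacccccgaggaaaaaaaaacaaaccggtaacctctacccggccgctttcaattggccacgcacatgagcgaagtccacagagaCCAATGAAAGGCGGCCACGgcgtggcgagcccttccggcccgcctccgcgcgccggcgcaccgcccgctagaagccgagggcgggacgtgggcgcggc
Hspa5 (chr2:34771840-34772089, plus strand): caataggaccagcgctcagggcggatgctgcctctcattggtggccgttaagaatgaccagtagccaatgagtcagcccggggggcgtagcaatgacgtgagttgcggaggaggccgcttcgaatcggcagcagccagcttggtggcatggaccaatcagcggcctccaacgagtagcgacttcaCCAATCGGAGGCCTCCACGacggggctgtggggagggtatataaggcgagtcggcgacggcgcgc
A match is a run of letters and does not show that a factor was bound there in these cells.

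Serinc3 and Aldh1l2 were the other genes to pass the interaction test, outside the list and named after their values were seen. Serinc3, a membrane protein that blocks retroviral entry, was at 1217 and 1056 CPM in unstimulated wildtype, 99.5 and 102 CPM in unstimulated Akr1a1 KO, 301 and 336 CPM in stimulated wildtype and 184 and 206 CPM in stimulated Akr1a1 KO libraries. It was far lower in unstimulated KO cells (log2 fold change -3.50 with a standard error of 0.15, adjusted p = 5.81e-05) and less so in stimulated ones (log2 fold change -0.71). Aldh1l2, a mitochondrial folate enzyme, was at 7.41 and 9.61 CPM in unstimulated wildtype, 47.9 and 47.8 CPM in unstimulated Akr1a1 KO, 5.06 and 6.36 CPM in stimulated wildtype and 3.08 and 4.02 CPM in stimulated Akr1a1 KO libraries (log2 fold change 2.48 with a standard error of 0.221, adjusted p = 0.00315 in unstimulated cells).

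Few of the enzymes around AKR1A1 passed the test. None of 16 aldo-keto and carbonyl reductases was called in the fit over both states (median log2 fold change -0.14, from -2.26 to 1.25). Akr1b3 was at -0.28, Akr1b8 at -0.30 and Cbr1 at -0.47. Of the 16, 3 were lower and 0 higher without overlap in either state, against 7.16% and 5.09% of all genes tested. Of 19 denitrosylases and thiol reductases 0 were called, and their log2 fold changes lay between -0.23 and 0.27. Adh5, the other S-nitrosoglutathione reductase, was at 78.2 to 90.5 CPM in wildtype and 65.9 to 98 CPM in KO libraries (-0.01, standard error 0.10). The 22 genes of the pyruvate and oxoglutarate dehydrogenase complexes and of lipoylation also had 0 called (median 0.02), as had 15 genes of arginine and nitric oxide synthesis. Of 26 TCA cycle and itaconate genes, Idh1, which encodes the cytosolic isocitrate dehydrogenase, was lower: it was at 328 and 291 CPM in unstimulated wildtype, 196 and 203 CPM in unstimulated Akr1a1 KO, 145 and 111 CPM in stimulated wildtype and 45.6 and 48.1 CPM in stimulated Akr1a1 KO libraries (log2 fold change -1.04 with a standard error of 0.171, adjusted p = 0.0208). Idh1 lies within the stretch of chromosome 1 described with the chromosomes.

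Of 36 complex I subunits 0 were called (median -0.09), and of 39 subunits of complexes III to V, Cox4i2, an isoform of a cytochrome c oxidase subunit, fell (-2.04, 2.08 to 3.56 CPM in wildtype and 0.393 to 0.80 CPM in KO libraries). The 13 mitochondrial encoded subunits had 0 called and a median of -0.48. Glycolysis (25 genes, median -0.07), phagocyte NADPH oxidase (8 genes, -0.28), NRF2 targets (22 genes, 0.16) and iron and heme genes (19 genes, 0.07) had 0 called. Without overlap in either state, 5 NRF2 targets were higher and 0 lower, and 3 iron and heme genes higher and 0 lower. For NADPH oxidase these counts were 1 and 4, for glycolysis 0 and 2, for complex I 0 and 5, for complexes III to V 0 and 9 and for mitochondrial encoded subunits 0 and 4. Of all genes tested, 5.09% were higher and 7.16% lower in this way. The cathepsin Ctsh (191 and 124 CPM in unstimulated wildtype, 24.2 and 25.6 CPM in unstimulated Akr1a1 KO, 67 and 71.6 CPM in stimulated wildtype and 17.8 and 28.2 CPM in stimulated Akr1a1 KO libraries) fell (log2 fold change -2.13 with a standard error of 0.251, adjusted p = 0.00349) as 1 of 40 V-ATPase and lysosome genes.

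Fatty acid synthesis and storage (22 genes), LXR targets (14), prostaglandin and leukotriene synthesis (16), integrins (22), matrix proteases (16) and osteoclast genes (19) had 0 called. So had DNA replication (36, median -0.13), mitosis (29), metallothioneins and zinc transporters (12), cytosolic ribosomal proteins of the list (40) and histone and RNA quality transcripts (10). Egr1, an immediate early transcription factor that is also in the list of 33 macrophage lineage factors, fell (-4.86, adjusted p = 0.0281), with 0.225 to 2.79 CPM in wildtype and 0 to 0.134 CPM in KO libraries, as 1 of 20 immediate early genes. Phlda3, a p53 target, fell (-1.10) as 1 of 24, and P4ha2, a collagen prolyl hydroxylase, rose as 1 of 19 hypoxia-responsive genes, with 1 count in wildtype and 59 in KO libraries (ratio 74.6, 95% exact interval 12.9 to 2997).

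Over some stretches of chromosome, most genes differed together. These stretches were delimited after the values were seen, from 10 Mb windows with at least 20 genes of mean log2 CPM over 2 (191 windows), and DNA was not measured. On chromosome 1 from 30 to 80 Mb, as the table lists positions, 14 of 350 genes tested were called, all lower (4%), and the median log2 difference of its 173 expressed genes from the wildtype mean was -0.60 and -0.55 in KO replicate A (unstimulated and stimulated) and -0.21 and -0.29 in KO replicate B. Dst, Idh1, Rpl37a (-0.66) and Rpl31 (-0.57) are among the called genes there, and the ribosomal protein genes have near-identical pseudogenes that could share their reads. Whether the position had a part in their differences was not tested. From 80 to 170 Mb of the same chromosome, the 261 expressed genes lay at 0.29 and 0.25 in replicate B and at -0.04 and 0.01 in replicate A.

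All of chromosome 12 (366 expressed genes) was higher in KO replicate B, with medians of 0.35 and 0.29 in the unstimulated and stimulated library, and not in replicate A (-0.04 and -0.01). On chromosome 3 from 30 to 70 Mb, the 94 expressed genes of wildtype replicate A lay below those of wildtype replicate B by a median of -1.11 unstimulated and -0.91 stimulated on the log2 scale. Against wildtype replicate B, the KO libraries lay between -0.02 and 0.04 there, while the median log2 fold change over that stretch, with both wildtype letters in the mean, was 0.41. None of its 202 tested genes was called. From 70 to 110 Mb the wildtype letters differed by -0.61 and -0.46. Each of these shifts appeared in the same letter in both states.

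**Figure D5:**
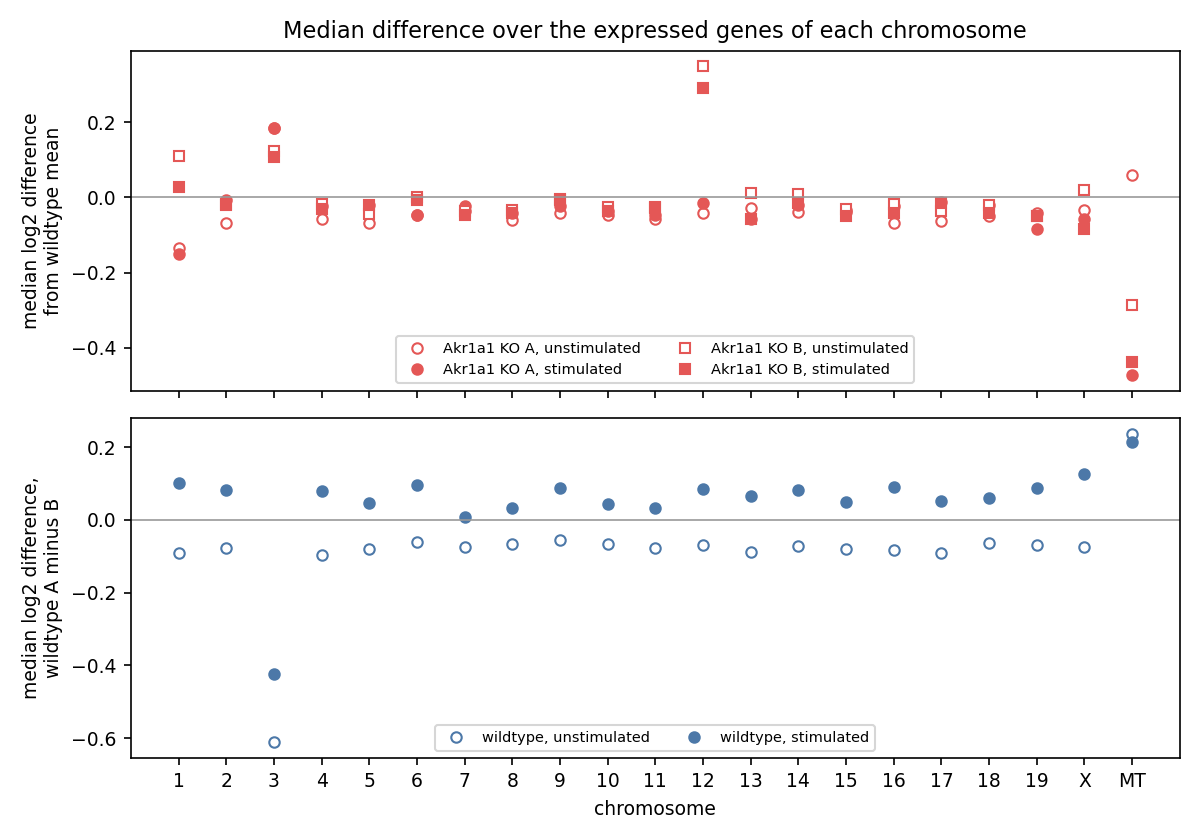
Median log2 difference over the expressed genes of each chromosome (x axis): upper panel, each Akr1a1 KO library minus the wildtype mean of its state; lower panel, wildtype replicate A minus replicate B. Chromosome 12 stands at 0.35 and 0.29 in KO replicate B, and chromosome 3 at -0.61 and -0.42 between the wildtype letters, while the mitochondrial transcripts (MT, 13 genes) vary between libraries.

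The genes around Akr1a1 on chromosome 4 were not called. Of 24 protein-coding neighbours tested within 500 kb, 0 passed, and their median log2 fold change was -0.09, with the highest at 0.56 (Ccdc17). Prdx1, a peroxiredoxin and the most abundant of these neighbours, was at 436 and 518 CPM in unstimulated wildtype, 519.6 and 519 CPM in unstimulated Akr1a1 KO, 1124 and 3038 CPM in stimulated wildtype and 2429 and 2861 CPM in stimulated Akr1a1 KO libraries (0.23, standard error 0.257). Nasp, a histone chaperone, and Mast2, a kinase, had log2 fold changes of 0.08 and 0.01, and Hectd3, a ubiquitin ligase, was at -0.39 (adjusted p = 0.224).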

How the data were processed

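Poly(A) RNA of 8 RAW264.7 libraries was compared. The authors aligned reads to mm10 with STAR (per the labels, which also name CASAVA) and deposited raw counts per gene. The counter and annotation are not given in the sources used here, and the table names no build for its positions. Its positions are not those of GRCm38.p6, from which the promoters were read: it starts Hspa5 at 34661982, and the promoter of Hspa5 ends at 34772089. Gene lengths in the table were not used, nor was the table of bone marrow-derived macrophages. There were 0 columns of per-sample values without a sample, and 882 gene names occurred more than once.

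The 19569 genes that reached a total of 10 counts were fitted with edgeR 4.0.16 in R 4.3.3 (TMM scaling, quasi-likelihood test, state and genotype as terms, adjusted p under 0.05 by Benjamini-Hochberg), and within each state with 1 mean per group. CPM are counts scaled to the TMM-corrected library size. The code was tested on simulated data. Intervals and floors (3 counts per library) cover counting error only. Alternatives used DESeq2 1.42.0, limma 3.58.1, other filters and scaling, counts summed by letter, replicate blocks and leaving out libraries. Figures were drawn with matplotlib 3.10.9.

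The genes named were Akr1a1, the genes the study followed, the 12 called protein-coding genes most increased and the 12 most decreased (mean log2 CPM over 2, no overlap in either state), the neighbours of Akr1a1 within 500 kb, and called members of gene lists. The members and lists were chosen with earlier results of these data known. Promoters were read from RefSeq tables of GRCm38.p6. Some items are not reported here.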

Additional observations from a re-analysis of the deposited data

Results flagged for a closer look

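The difference between Akr1a1 KO and wildtype was not the same in stimulated and unstimulated cells for 4 genes, by the interaction term of edgeR's model with 1 mean per group. The log2 fold change of stimulated minus that of unstimulated cells was 2.79 for Serinc3 (adjusted p = 0.00922), -2.0 for Pdia4, -1.95 for Sdf2l1 and -3.17 for Aldh1l2 (adjusted p = 0.0362 for each of these 3). In unstimulated cells both KO libraries lay above both wildtype libraries for Pdia4, Sdf2l1 and Aldh1l2, as for 17.8% of all genes tested. For Serinc3 they lay below. The interaction test draws on the same values, so this adds no support to it. None of the 4 was among the 235 genes called over both states.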

How the results depend on the processing

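Of the 623 results for the 24 genes with the largest changes over all alternatives, 532 kept their direction and side of the threshold, 91 lost significance and 0 reversed; Rell1, Pde8a, Sema5a and Zcwpw1 kept theirs throughout. The 235 genes called, 18 of them in the gene lists, became 780 and 67 with DESeq2, and 1403 (48% higher, against 37.9%) and 180 with no filter beyond 1 count, where Akr1a1 passed (-1.57, adjusted p = 1.67e-29) and the prior degrees of freedom, 4.5 with the filter, were infinite. Summing the counts of each genotype and letter gave 43 and 4, with 9 of the 24 named genes called. Unstimulated libraries alone gave 253 and 36, and stimulated ones alone 25 and 1, with 6 named genes. Leaving out libraries gave 85 to 532 genes, 4 to 56 in the lists, 12 to 23 named genes, and -2.74 to -0.95 for Akr1a1, which passed without KO unstimulated replicate B (-1.12, adjusted p = 0.0452). Of single libraries, wildtype unstimulated B, KO unstimulated A, KO unstimulated B and KO stimulated B lowered the count over 1.5 times when left out (138, 117, 156 and 132). Without wildtype replicate B in both states 54.1% were higher. The 4 interaction calls became 90 with DESeq2 and 1 with filterByExpr. The causes were not tested.

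The letters do not pair the genotypes (r = -0.128 and -0.114 between them); with the letter as a replicate block 296 genes were called (114 higher, 182 lower). With letters crossed, chosen after seeing the data, 377 were called, 31 in the lists. Without chromosome 1 from 30 to 80 Mb, also chosen afterwards, 212 were called. Genes with few counts could be called where the genotypes lay far apart, as P4ha2 was with 1 count in wildtype and 59 in KO libraries. Smaller differences of such genes may not be detectable at this depth.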
